A study of Mus musculus with 12 samples.

Results

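The 10 genes described here are genes of simple epithelia: the keratin genes Krt7, Krt8, Krt18, Krt19 and Krt23, the adhesion genes Epcam and Cdh1, the claudin genes Cldn6 and Cldn7, and Grhl2, which encodes a transcription factor. They are 10 of the 54232 genes counted in every library. The set was chosen by names of known epithelial genes with earlier results of these data in view, and Krt23 was selected on its level in LDHi against control, where it stood among the largest differences. Among the 161 genes called higher in that comparison, Krt23 ranked 7 by log2 fold change. For these genes the comparison of LDHi with control is therefore a description, in levels, fold changes and counts over the set, and nothing is read from a test of a single gene.

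RNA was sequenced from 12 libraries of eye organoids collected on day 7, all grown from 1 mouse embryonic stem cell line that carries a GFP knock-in on 1 copy of Rax. Eye organoids are aggregates of stem cells that form retinal progenitors and bulge into structures like optic vesicles. The 4 control libraries had no compound. The 4 LDHi libraries had 20 µM GNE-140, an inhibitor of lactate dehydrogenase, for 3 days. The 4 LDHi+lactate libraries had GNE-140 in the same way with 25 mM sodium L-lactate, which the labels give as a pretreatment of 12 h and the methods as present together with GNE-140. In each group the labels give replicates 1 and 2 as eye organoid (the first library set) and replicates 3 and 4 as retina progenitors (the second).

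Totals ran from 22174002 to 48271386 counts per library, with at least 37284585 in the first set and at most 29919036 in the second. No sort is described in the sources, and what the label retina progenitors stands for was not given, so whether all 12 libraries hold whole organoids is not known. Fewer cells of a type cannot be told apart from less RNA per cell. The 10 defining markers of neuroepithelium (among them Sox2, Pax6, Lhx2 and Six3) were all counted in each group, and their summed level was 2265 to 4164 CPM over the 12 libraries. CPM are counts per 1000000 counts of a library after scaling by TMM.

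Simple epithelia are single layers of cells whose intermediate filaments are built from pairs of a type I and a type II keratin. Krt8 pairs with Krt18, the first keratins made in the embryo, and Krt7 pairs with Krt19. Cdh1 encodes E-cadherin, which holds neighbouring cells together at adherens junctions, and cells of the neural plate exchange it for N-cadherin (Cdh2) as they leave the pluripotent epithelium. Epcam encodes a surface glycoprotein of epithelia and of embryonic stem cells, and claudins form the strands of tight junctions. Grhl2 activates epithelial junction genes, whereas the Snai, Zeb and Twist factors repress Cdh1 through E-box elements.

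Krt7, Krt8 and Krt18 lie together on chromosome 15, with 23697 bases between Krt8 (chr15:101996698-102004482, minus strand) and Krt18 (chr15:102028180-102032027, plus strand). Grhl2 is elsewhere on the same chromosome. Krt19 and Krt23 (chr11:99477974-99493137, minus strand) are 647672 bases apart on chromosome 11, which also holds Cldn7. Epcam and Cldn6 are on chromosome 17, and Cdh1 is on chromosome 8. All coordinates are in mm10, with genes from GENCODE vM21.

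Promoters, from 250 bases before to 50 after the start, were in the RefSeq table (GRCm38.p6, the assembly of mm10) for 7 of the 10 genes, in 8 windows because Cldn7 had 2. Krt19, Cdh1 and Grhl2 had no entry, so their promoters were not searched. The windows were searched on both strands for the E-box CACCTG and for the Grhl motif AACCNGTT, neither of which contains the other. On the opposite strand the E-box reads CAGGTG. The E-box was present in 7 of the 8 windows and in each of the 7 genes, and in 20.2% of all 32851 promoters of the table. No window of these genes held the Grhl motif, which 2.09% of all promoters held. Neither match shows a bound site. Shown are the promoters of Krt23, the gene with the largest fold change, of Krt8, and of Epcam and Cldn6, each with 2 E-boxes, in the direction of transcription with the E-boxes in capitals.
Krt23: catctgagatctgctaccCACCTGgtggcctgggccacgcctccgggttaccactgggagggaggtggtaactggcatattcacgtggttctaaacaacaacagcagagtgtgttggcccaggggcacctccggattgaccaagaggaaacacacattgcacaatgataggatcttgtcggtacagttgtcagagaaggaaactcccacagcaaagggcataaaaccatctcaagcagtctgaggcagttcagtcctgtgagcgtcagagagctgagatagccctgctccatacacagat
Krt8: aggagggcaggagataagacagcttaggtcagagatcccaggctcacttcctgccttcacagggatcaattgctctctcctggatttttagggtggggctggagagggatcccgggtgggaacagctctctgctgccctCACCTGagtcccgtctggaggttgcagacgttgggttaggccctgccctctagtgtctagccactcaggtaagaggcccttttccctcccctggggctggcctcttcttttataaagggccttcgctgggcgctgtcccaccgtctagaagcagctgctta
Epcam: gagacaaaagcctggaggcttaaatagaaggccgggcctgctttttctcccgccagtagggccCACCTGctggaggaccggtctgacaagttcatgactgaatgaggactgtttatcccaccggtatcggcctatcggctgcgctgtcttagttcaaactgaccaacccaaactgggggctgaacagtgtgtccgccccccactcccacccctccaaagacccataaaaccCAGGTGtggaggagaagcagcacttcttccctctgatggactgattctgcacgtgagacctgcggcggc
Cldn6: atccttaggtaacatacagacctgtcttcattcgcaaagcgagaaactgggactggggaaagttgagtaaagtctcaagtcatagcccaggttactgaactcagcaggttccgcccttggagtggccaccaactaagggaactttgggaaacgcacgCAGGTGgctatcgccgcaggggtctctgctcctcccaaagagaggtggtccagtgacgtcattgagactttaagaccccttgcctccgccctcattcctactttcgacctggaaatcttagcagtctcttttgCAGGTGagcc
The Krt23 window is chr11:99493071-99493370 (minus strand) with its E-box starting at position -232 from the start of transcription. In Krt8 (chr15:102004293-102004592, minus strand) it started at -111. Epcam (chr17:87635729-87636028, plus strand) held E-boxes at -187 and -19, and Cldn6 (chr17:23679115-23679414, plus strand) at -93 and 41. The single E-box of Krt7 started at -44, that of Krt18 at -214, and those of the second Cldn7 window at -97 and -57.

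All 10 genes passed the filter on low counts. Per kilobase of the principal transcript, the scale on which genes can be compared, the mean level in control ran from 82.9 CPM per kilobase for Krt18 to 0.248 for Krt23. Krt18 was followed by Cldn6 (38.3 ± 24.2, SD, n = 4), Krt8 (26.2 ± 4.92), Krt19 (22.5 ± 7.04), Epcam (20.4 ± 6.9), Cdh1 (18.6 ± 5.03) and Cldn7 (15.2 ± 6.35). Krt7 (4.2 ± 1.02) and Grhl2 (1.62 ± 0.461) were lower. From Cldn6 to Cldn7, neighbours in this order differed by less than the larger of their SDs. In LDHi the first and last genes on this scale were the same, with Krt18 at 66.4 ± 14.8 and Krt23 at 1.55 ± 0.362. With lengths taken over all exons of a gene instead, the control level of Krt7 was 2.44, that of Grhl2 0.932 and that of Cldn7 10.4, and in LDHi Grhl2 (1.34) then stood below Krt23 (1.55). Krt7, Krt8 and Grhl2 each share exon bases (77, 101 and 169) with a gene on the opposite strand, whose counts over the 12 libraries were 1, 23 and 212, beside 7501, 27101 and 4145 for the 3 genes.

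Krt23 was the gene whose level differed most between the groups. In control it was 0.328, 0.261, 0.307 and 0.658 CPM in replicates 1 to 4, from 8 to 17 counts. In LDHi it was 1.61, 2.56, 2.9 and 2.65 CPM, from 63 to 119 counts. Every LDHi library lay above every control library, and Krt23 was the only one of the 10 genes without overlap, where 9.67% of all 17721 genes tested did not overlap in either direction. The fold change was 6.32 (log2 2.66, SE 0.51). In the first library set alone it was 2.81 on the log2 scale and in the second 2.5.

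With lactate, Krt23 was at 1.21, 2.0, 0.275 and 1.49 CPM. Each library lay below the LDHi library with its number and 3 of 4 lay above the control library with their number. Replicate 3, with 8 counts, was at the control level. The log2 fold change against LDHi was -0.96 (SE 0.47, lower in 4 of 4, edgeR adjusted p = 1.0, two-sided exact permutation p = 0.0571), so the difference did not pass the test. Against control it was 1.71 (SE 0.5, higher in 3 of 4, edgeR adjusted p = 0.335), and with the replicate block the adjusted p was 0.0609. DESeq2 called this last difference. By library set the values were -0.38 (SE 0.39) in the first and -1.64 (SE 0.77) in the second against LDHi, and 2.43 (SE 0.44) and 0.86 (SE 0.82) against control, in the same order of sets. Krt23 was selected on its levels in the LDHi and control libraries, and each of these comparisons reuses part of them. This favours a fall against LDHi and a rise against control, so the p-values and the DESeq2 call are descriptions.

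**Figure D1:**
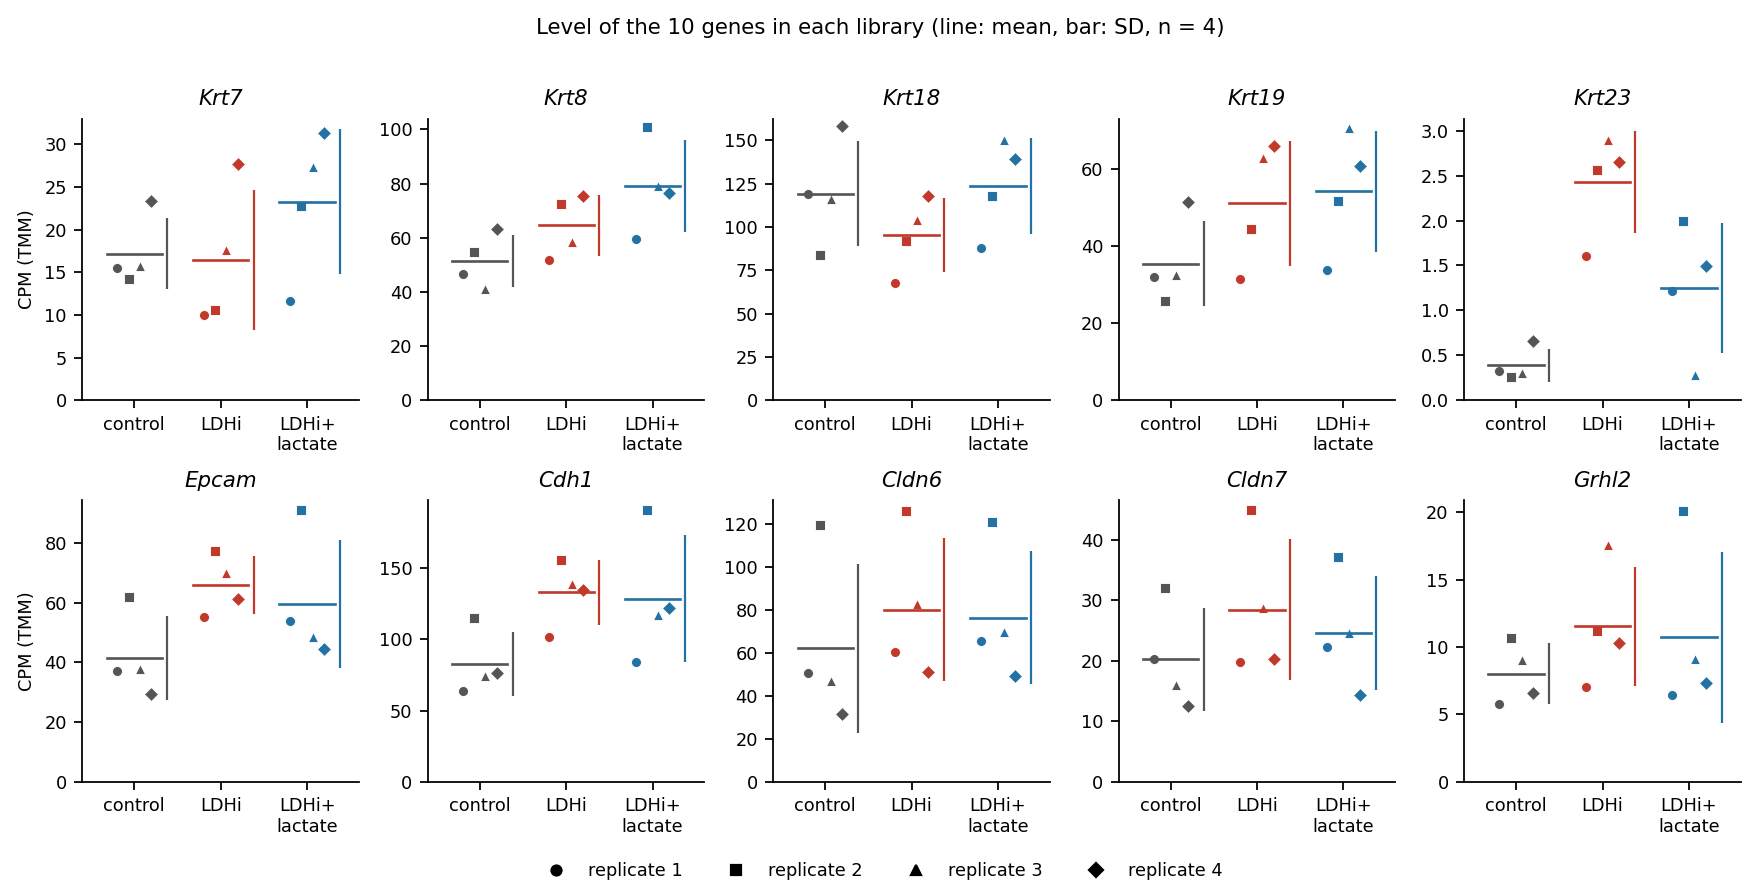
Levels in CPM (linear axis from 0, a scale of its own in each panel) of the 10 genes in control, LDHi and LDHi+lactate, with 1 point per library, its shape giving the replicate number, the mean as a line and the SD as a bar (n = 4). The 4 LDHi libraries of Krt23 (1.61 to 2.9) sit above the 4 control libraries (0.261 to 0.658), and replicate 2 is the highest point of Epcam, Cdh1, Cldn6 and Cldn7 in each group.

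Cdh1 and Epcam had the next largest differences between LDHi and control. Cdh1 was 63.9, 115, 74.4 and 76.6 CPM in control, 102, 156, 139 and 135 in LDHi, and 84.4, 191, 117 and 122 in LDHi+lactate. Within each replicate number LDHi exceeded control, by 0.69 (SE 0.24) on the log2 scale in the fit, although control replicate 2 overlapped the LDHi group. Epcam was 37.1, 61.8, 37.9 and 29.3 CPM in control, 55.1, 77.2, 69.8 and 61.1 in LDHi, and 53.9, 91.1, 48.5 and 44.4 in LDHi+lactate. The log2 difference of LDHi from control was 0.66 (SE 0.25), higher in 4 of 4 pairs, and again control replicate 2 overlapped LDHi.

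For the claudin genes and Grhl2 the difference between LDHi and control was smaller than the larger SD of the groups, which holds the spread between replicate numbers. Cldn6, a claudin of early embryonic epithelia, ranged from 31.5 to 119.8 CPM in control, between 51.4 and 126 with LDHi, and between 49.4 and 121 once lactate was added. Its replicate 2 was highest and replicate 4 lowest in all 3 groups. Cldn7 ranged from 12.5 to 32.0, from 19.9 to 44.9 and from 14.4 to 37.2 CPM in the same order of groups. The log2 fold changes of LDHi against control were 0.37 (SE 0.41) for Cldn6, higher in 4 of 4 pairs, and 0.49 (SE 0.35) for Cldn7, higher in 3 of 4. With the replicate block they were 0.45 (SE 0.11) and 0.49 (SE 0.13). Grhl2 was at 5.75 to 10.7 CPM in control, 7.06 to 17.6 in LDHi and 6.43 to 20.1 with lactate, at a log2 difference between LDHi and control of 0.52 (SE 0.38) and LDHi above control in 4 of 4 pairs.

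The other 4 keratin genes differed from each other in direction. Krt8 was 46.5, 54.6, 41.1 and 63.2 CPM in control, 51.7, 72.5, 58.4 and 75.5 in LDHi, and 59.4, 101, 79.1 and 76.5 in LDHi+lactate. Its level stood higher in LDHi than in control in 4 of 4 pairs (log2 0.33, SE 0.18). Krt18, its partner, was 119, 84.0, 116 and 158 CPM in control, 67.6, 92.1, 104 and 118 in LDHi, and 87.6, 118, 150.3 and 139 in LDHi+lactate. It stood lower in LDHi in 3 of 4 pairs (log2 -0.32, SE 0.22), the only one of the 10 genes besides Krt7 with a negative fold change. Krt19 was 32.0, 25.9, 32.6 and 51.5 CPM in control, 31.5, 44.4, 62.9 and 66.0 in LDHi, and 33.9, 51.8, 70.9 and 60.9 in LDHi+lactate, with LDHi above control in 3 of 4 pairs (log2 0.53, SE 0.28). Krt7 ranged from 14.2 to 23.4 CPM in control and from 10.04 to 27.7 in LDHi, and its fold change of -0.06 (SE 0.35) was smaller than its error.

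The ratio of Krt18 to Krt8, per kilobase, was 3.48, 2.09, 3.85 and 3.4 in control and 1.78, 1.73, 2.43 and 2.12 in LDHi. It was lower in LDHi in 4 of 4 pairs, with a mean of 3.21 ± 0.767 in control and 2.02 ± 0.327 in LDHi (SD, n = 4). The ratio was derived from the comparison that chose the genes and is given without a test. In LDHi+lactate it was 2.01, 1.59, 2.59 and 2.48, lower than control in 4 of 4 pairs (log2 -0.56, two-sided exact permutation p = 0.0857) and close to LDHi (log2 0.09, p = 0.657 by the same exact test). The smallest p this test can give for 4 against 4 libraries is 0.0286. Both comparisons reuse libraries from which the ratio was derived, so these p-values are descriptions too.

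**Figure D2:**
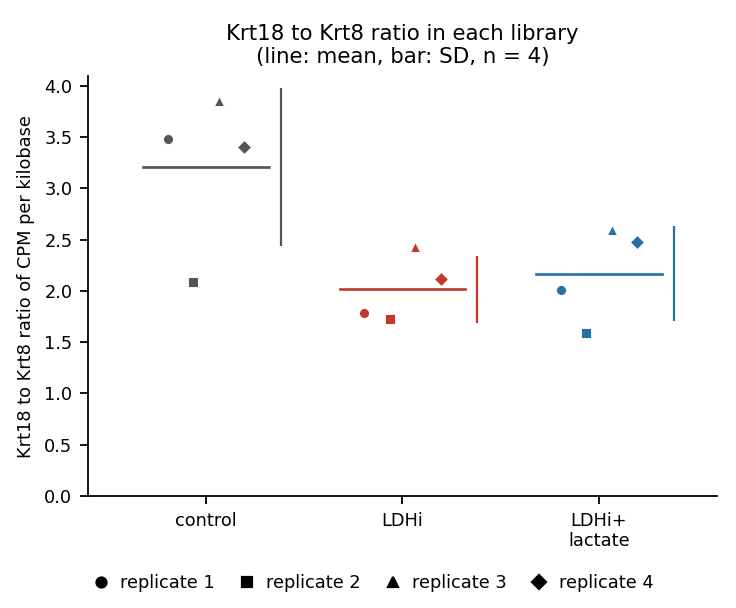
Ratio of Krt18 to Krt8, each in CPM per kilobase (linear axis from 0), with 1 point per library, its shape giving the replicate number, the mean as a line and the SD as a bar (n = 4). Control replicates 1, 3 and 4 (3.4 to 3.85) sit above all LDHi and LDHi+lactate libraries (1.59 to 2.59), and control replicate 2 (2.09) lies among them.

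Over the 10 genes, the median log2 fold change of LDHi against control was 0.51, beside 0.01 over all genes tested, and 8 of 10 were positive. Called higher, at an adjusted p under 0.05 by edgeR without a block, was 1 of the 10 genes, where 0.909% of all genes were called higher. None was called lower, where 2.18% of all genes were. With the replicate number as a block, 5 of the 10 were called higher, beside 9.85% of all genes, and none lower, beside 10.1%. Because this comparison chose the set, these counts are descriptions from which nothing is read. Without the block, the number called higher was 0 with LDHi replicate 2 or 3 or control replicate 1 or 3 left out. It was 2 with control replicate 2 left out.

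None of the 10 genes was called between LDHi+lactate and LDHi. This comparison shares the LDHi libraries with the one that chose the set. By edgeR, 0 of the 10 were called, 0 had an unadjusted p under 0.05, and 0.0% of all genes were called. A fit that calls no gene at all cannot show that lactate left these genes unchanged. The block also called 0 of the 10 (4 with an unadjusted p under 0.05) where it called 0.638% of all genes. By DESeq2 too, 0 of the 10 were called (1 unadjusted), beside 0.305% of all genes. The median log2 fold change was -0.06, and no gene of the set was free of overlap between the groups, beside 2.1% of all genes.

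Within this comparison, Krt7, Krt8 and Krt18 stood higher with lactate in 4 of 4 pairs. Krt7 was 10.04, 10.6, 17.6 and 27.7 CPM in LDHi and 11.6, 22.8, 27.4 and 31.4 in LDHi+lactate (log2 0.5, SE 0.35, edgeR adjusted p = 1.0). Krt18 differed by 0.38 (SE 0.22) and Krt8 by 0.29 (SE 0.18) on the log2 scale, each with an adjusted p of 1.0 by edgeR. With the block the adjusted p was 0.315 for Krt7, 0.317 for Krt8 and 0.333 for Krt18. Epcam, Cdh1, Cldn6, Cldn7 and Grhl2 stood lower in 3 of 4 pairs each, with log2 fold changes between -0.21 and -0.05.

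Against control, all 10 genes had a positive log2 fold change in LDHi+lactate, with a median of 0.48 beside 0.0 over all genes. This comparison shares the control libraries with the one that chose the set, which favours a rise against control. The counts, calls and p-values here are therefore descriptions. Without the block edgeR called 0 of the 10 (4 at an unadjusted p under 0.05) and 0.0% of all genes. With the block it called 4 of the 10 higher, beside 4.18% of all genes. These were Cdh1 (log2 0.62, SE 0.09, adjusted p = 0.00701), Krt8 (0.62, SE 0.11, adjusted p = 0.0126), Epcam (0.51, SE 0.12, adjusted p = 0.0305) and Krt19 (0.59, SE 0.16, adjusted p = 0.0487), each higher in 4 of 4 pairs. DESeq2 called Krt23 alone, where it called 0.651% of all genes higher. None of the 10 was free of overlap, beside 4.23% of all genes. Leaving out any 1 replicate number from the fit with the block left 2 or 3 of the 10 called.

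**Figure D3:**
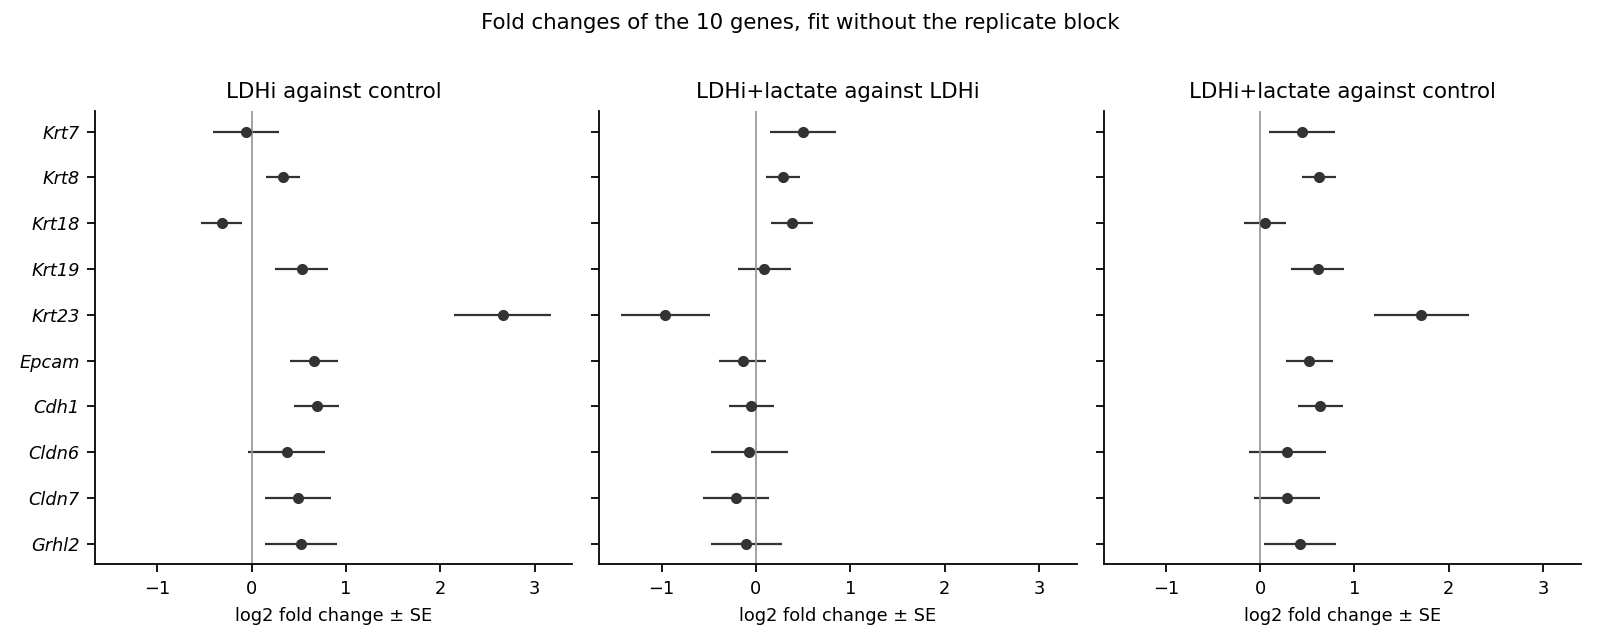
Log2 fold changes (points) with their standard errors (bars) of the 10 genes for the effect of LDHi (left), of lactate in the presence of LDHi (middle) and of both together (right), from edgeR without the block. Krt23 stands apart at 2.66, -0.96 and 1.71, and the other 9 genes lie between -0.32 and 0.69.

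The libraries of a group differed from each other. For Epcam, Cdh1, Cldn6 and Cldn7, replicate 2 had the highest level in all 3 groups. Krt7, Krt8, Krt18 and Krt19 were highest in replicate 4 in control and in LDHi, but with lactate this was so for Krt7 alone, Krt8 being highest in replicate 2 and Krt18 and Krt19 in replicate 3. Replicate 1 was the lowest LDHi library for 9 of the 10 genes, Cldn6 being the exception. In pairs of the same number, the median difference of the 10 genes between LDHi and control was 0.21 in replicate 1, 0.36 in replicate 2, 0.86 in replicate 3 and 0.67 in replicate 4 on the log2 scale.

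The comparison of the 2 library sets, with treatment as a covariate, was not used to choose the genes. With the 12 libraries taken as independent, 3 of the 10 genes were called higher in the second set, beside 13.7% of all genes, and all 3 are keratin genes. Krt19 stood higher by 0.64 (SE 0.14, edgeR adjusted p = 0.00706), Krt18 by 0.47 (SE 0.12, adjusted p = 0.0139) and Krt7 by 0.77 (SE 0.2, adjusted p = 0.0142) on the log2 scale. Each of these calls held with any 1 library left out and with DESeq2, which also take the libraries as independent. None of the 10 was lower by edgeR, beside 14.3% of all genes.

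Libraries of the same replicate number deviated together, however, and each set holds 2 numbers, so these p-values are too small. With the counts of each number summed, 2 numbers against 2, an alternative added after seeing the data, 0 of the 10 genes were called (3 at an unadjusted p under 0.05), beside 0.0226% of all genes higher and 0.079% lower. The log2 differences were then 0.67 (SE 0.14, edgeR adjusted p = 0.157) for Krt19, 0.48 (SE 0.09, adjusted p = 0.153) for Krt18 and 0.79 (SE 0.22, adjusted p = 0.195) for Krt7. The differences of the 3 keratin genes between the sets thus kept their size but did not pass the test over replicate numbers.

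Cldn6 (log2 -0.74, SE 0.27, adjusted p = 0.0647), Cldn7 (-0.63, SE 0.24, adjusted p = 0.0702) and Epcam (-0.4, SE 0.18, adjusted p = 0.114) stood lower in the second set without passing the test by edgeR. DESeq2 called Cldn6 and Cldn7 lower, with an adjusted p of 0.0235 and 0.0338. Without LDHi replicate 1, edgeR called all 3 lower, and without LDHi replicate 3 it called Cldn6 alone. With the summed counts their adjusted p was 0.391, 0.409 and 0.453. Krt8 (0.04, SE 0.15), Krt23 (0.05, SE 0.4), Cdh1 (-0.12, SE 0.2) and Grhl2 (-0.05, SE 0.32) had differences smaller than their errors. The sets also differ in depth, which cannot be told apart from the difference in the label for cell type.

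**Figure D4:**
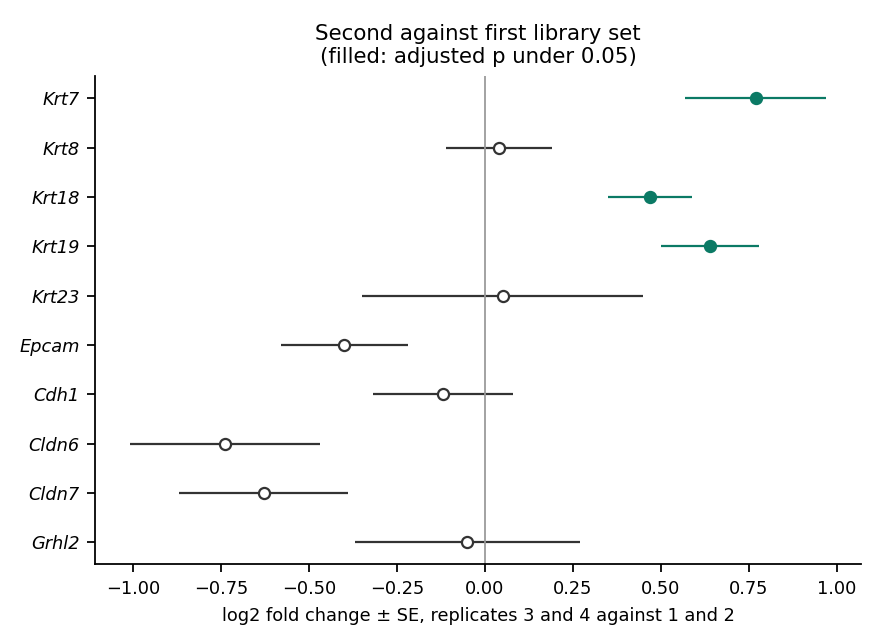
Log2 fold changes (points) with their standard errors (bars) of the 10 genes in the second library set (replicates 3 and 4) against the first (replicates 1 and 2), from edgeR with treatment as a covariate. Filled points, Krt7 (0.77), Krt18 (0.47) and Krt19 (0.64), have an adjusted p under 0.05 in this fit, which takes the libraries as independent, and none has one with counts summed by replicate number. Cldn6 (-0.74), Cldn7 (-0.63) and Epcam (-0.4) lie on the other side of 0.

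Whether the treatment effects differed between the sets was tested by an interaction term. For the effect of LDHi it called 0 of the 10 genes and 0.0% of all genes (694 with an unadjusted p under 0.05). The term was positive for 9 of the 10, with a median of 0.4 beside 0.02 over all genes. By DESeq2 there were 2 genes called higher and 8 lower, none of them in the set. For the effect of lactate the edgeR term called 0 of the 10 and 0.0% of all genes (239 unadjusted). It was positive for 1 of the 10, with a median of -0.25 beside -0.01 over all genes. Since edgeR called no gene at all, these tests cannot show that the effects were alike in the 2 sets. The largest interaction of lactate was that of Grhl2 (-1.3, SE 0.75, edgeR adjusted p = 1.0), followed by Krt23 (-1.27, SE 0.91, adjusted p = 1.0).

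Among the 49 other keratin genes, 8 passed the filter and 8 had no count in any library. Of those that passed, Krt10 was the most abundant at 6.38 to 12.2 CPM and was called in no comparison of treatments. Krt42 was 0.57 ± 0.355 CPM in control, 2.06 ± 0.749 in LDHi and 1.14 ± 0.826 in LDHi+lactate (log2 1.84 for LDHi against control, SE 0.56, edgeR adjusted p = 0.107), and it was called with the block and by DESeq2. Krt15, a keratin of stratified epithelia, was at 0.416 ± 0.344 CPM in control and 0.0941 ± 0.0935 in LDHi (log2 -2.28, SE 0.76, adjusted p = 0.136), and was called lower with the block. Krt5 and Krt14, the basal pair of stratified epithelia, stayed at or below 0.542 CPM in every library.

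Some regulators of epithelial genes were higher in LDHi than in control. Of 12 listed, 11 were tested and 3 were called higher, none lower, with a median log2 fold change of 0.64. In this comparison 0.909% of all genes were called higher and 2.18% lower by edgeR, and 9.85% and 10.1% with the block, against which the counts of each list are to be read. The lists too were chosen with earlier results of these data known, so their p-values in this comparison are no independent support. Klf5 rose from 21.7 ± 4.91 to 44.9 ± 6.82 CPM (log2 1.05, SE 0.2, edgeR adjusted p = 0.0208). Grhl3, a relative of Grhl2 needed for closure of the neural tube, rose from 6.94 ± 1.47 to 14.0 ± 3.57 CPM (1.01, SE 0.23, adjusted p = 0.0345). Esrp2, an epithelial splicing factor, rose from 5.47 ± 0.948 to 9.53 ± 1.13 CPM (0.8, SE 0.18, adjusted p = 0.0333). With the block Elf3, Esrp1 and Tfap2c were called too, which made 6 of 11. With lactate none of the 11 was called against LDHi, and the block called 4 higher against control (Grhl3, Elf3, Klf5 and Esrp2).

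Of 6 repressors of epithelial genes, 2 were lower in LDHi than in control and none higher. Twist1 was 41.1 ± 37.7 CPM in control, with a range of 8.86 to 94.5, and 3.47 ± 1.4 in LDHi (log2 -3.56, SE 0.74, edgeR adjusted p = 0.0254). Twist2 fell from 1.12 ± 1.05 to 0.08 ± 0.0297 CPM (-3.81, SE 0.92, adjusted p = 0.0461). Snai1 (-0.64, SE 0.18, adjusted p = 0.0719) and Snai2 (-1.24, SE 0.44, adjusted p = 0.162) passed with the block, Snai1 also by DESeq2, and Zeb1 and Zeb2 passed in none of these fits. None of the 6 was called between LDHi+lactate and LDHi. Klf5 and Esrp2 were not called without control replicate 1 or 3 or without LDHi replicate 2, 3 or 4, and Grhl3 also not without control replicate 4, with an adjusted p of at most 0.117. Twist1 was not called without control replicate 3 or any 1 of the LDHi libraries (at most 0.0896), and Twist2 was called in 3 of the 12 fits that left out a library.

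**Figure D5:**
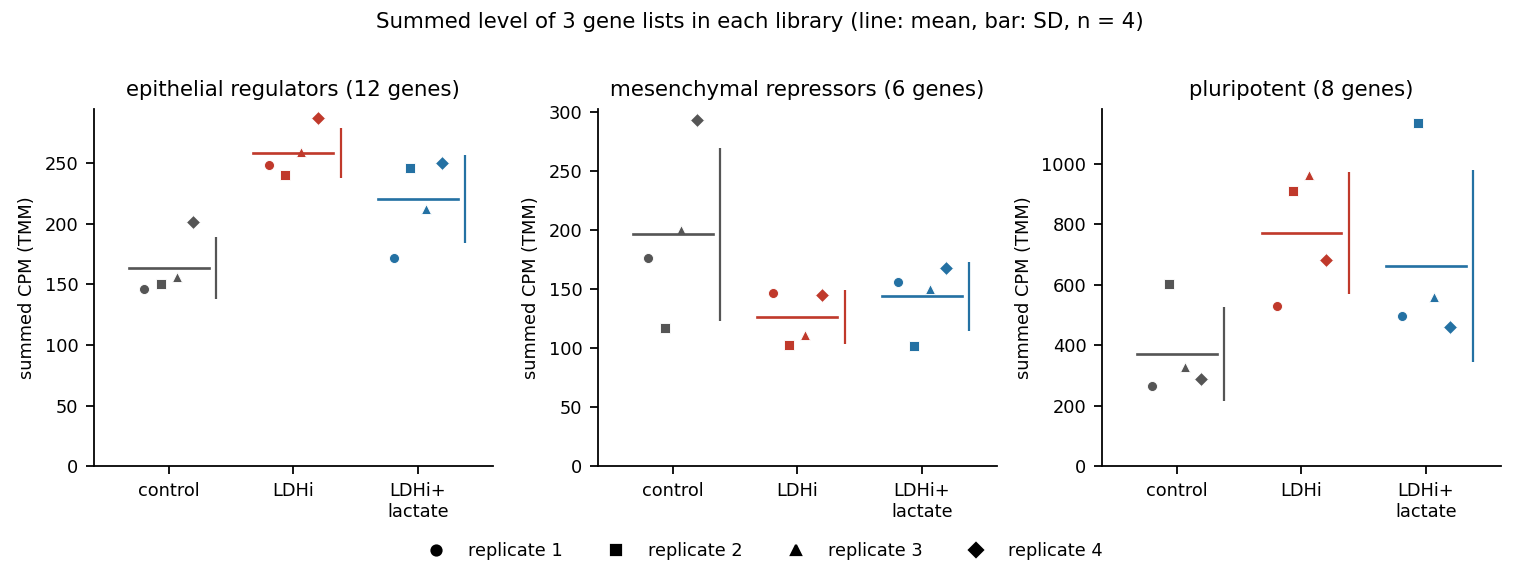
Summed CPM (linear axis from 0) of the 12 epithelial regulators, the 6 mesenchymal repressors and the 8 pluripotency genes in each library, with 1 point per library, its shape giving the replicate number, the mean as a line and the SD as a bar (n = 4). The regulators sum to 240.1 to 287 in LDHi and to 146 to 201 in control, and replicate 2 is the highest control (602) and the highest LDHi+lactate (1135) library of the pluripotency genes.

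Other junction genes did not pass the test of LDHi against control by edgeR without the block. Of the tight junction list, 19 of 20 were tested with 0 called in either direction and a median log2 fold change of 0.21. The block, which called 9.85% of all genes higher, called 6 of the 19, among them Cldn5, Ocln and F11r, and DESeq2 called Cldn5 alone. Of the adherens junction and desmosome list, 15 of 16 were tested with 0 called and a median of 0.04, and the block called 5 higher, among them Cdh3 (P-cadherin) and Jup (plakoglobin). Cdh2, the neural cadherin, was 355 ± 45.8 CPM in control, 370.0 ± 48.3 in LDHi and 329 ± 49.1 in LDHi+lactate. Of 12 epithelial surface genes 0 were called, and the block called 4 higher (St14, Spint2, Rab25 and Ap1m2) and Cd24a lower, of which DESeq2 called St14 and Cd24a.

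Pluripotent cells also carry simple epithelium genes, and 2 of 8 pluripotency genes were called higher in LDHi. All 8 were counted, and their summed level was 267 to 602 CPM in control, 531 to 963 in LDHi and 461 to 1135 in LDHi+lactate. Of these 8, Zfp42 (39.4 ± 11.6 to 113 ± 28.6 CPM, log2 1.52, SE 0.29, edgeR adjusted p = 0.0197) and Nanog (64.5 ± 20.5 to 153 ± 44.1 CPM, 1.24, SE 0.26, adjusted p = 0.0275) rose in LDHi, and 6 of the 8 were called with the block and 4 by DESeq2. With control replicate 1 or 3 left out, or LDHi replicate 2 or 3, Zfp42 was not called, and Nanog also not without control replicate 4 or LDHi replicate 4 (at most 0.0817). Pou5f1 was 44.9 ± 24.9 CPM in control, 128 ± 41.9 in LDHi and 99.3 ± 67.3 in LDHi+lactate. Replicate 2 was highest for the summed pluripotency genes in control and in LDHi+lactate, as it was for Epcam, Cdh1, Cldn6 and Cldn7. In LDHi, replicate 3 (963 CPM) stood above replicate 2 (911 CPM) for this sum. The summed endoderm markers were highest in replicate 2 in control (276 CPM), LDHi (279) and LDHi+lactate (266). The part of pluripotent or endoderm cells in the levels of the 10 genes was not tested.

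Markers of other cell types were also checked in LDHi against control. Of 8 trophectoderm markers Cdx2 was called higher (6.69 ± 0.888 to 14.4 ± 0.936 CPM, log2 1.1, SE 0.16, edgeR adjusted p = 0.00977), also in every fit with a library left out. With lactate against LDHi, Cdx2 was called lower by the block (log2 -0.7, SE 0.13, adjusted p = 0.0455) and by DESeq2 (adjusted p = 0.0101). EdgeR without the block did not call it there (adjusted p = 0.601). In LDHi against control 5 of the 8 markers had a positive fold change, and the block called Tfap2c as well. The list summed to 119 to 202 CPM in control, 173 to 238 in LDHi and 168 to 206 in LDHi+lactate. Of 10 endoderm markers 0 were called (3 with the block: Sox17, Foxa2 and Hnf4a), with sums of 61.0 to 276, 124 to 279 and 118 to 266 CPM. Of 10 surface ectoderm markers 9 were tested and 0 called (with the block Tfap2c higher, Krt15 and Dlx3 lower). Their median log2 fold change was -0.81, with 3 of the 9 positive. The sums were 68.2 to 149, 115 to 160.4 and 94.4 to 156 CPM. Tfap2c, also in the trophectoderm list, alone was 79.0 ± 20.02 CPM in control and 119 ± 22.0 in LDHi, beside median sums of 105 and 134. Of 5 notochord markers 4 were tested and 0 called (Chrd lower with the block), with sums of 8.93 to 29.8, 11.1 to 39.95 and 7.31 to 15.2 CPM. Noto had no count in the 4 control libraries, and no other marker was at 0 in all 4 libraries of a group. Of the neuroepithelium markers Sox2 rose (401 ± 68.6 to 609.8 ± 49.9 CPM, log2 0.61, SE 0.12, adjusted p = 0.0227) and Six3 fell (88.4 ± 25.4 to 38.0 ± 10.2 CPM, -1.22, SE 0.27, adjusted p = 0.0311), and each lost the call in 5 of the 12 fits that left out a library. The block called Sox1 higher too, and Pax6, Lhx2 and Otx2 lower, of which DESeq2 called Lhx2 and Otx2. With lactate against LDHi, the block called Six3 higher and Sox2 lower, of which DESeq2 called Six3.

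The same lists were compared between the library sets, where edgeR over the 12 libraries called 13.7% of all genes higher and 14.3% lower. Of 9 tested surface ectoderm markers 5 were called higher in the second set (Tfap2a, Trp63, Dlx3, Gata3 and Wnt6), with a median log2 fold change of 0.98. Of 10 endoderm markers 3 were called lower, among them Sox17 and Foxa2, with a median of -0.76, and of 8 pluripotency genes 1 was lower (Fgf5), with a median of -0.58. Of 15 adherens junction and desmosome genes 6 were called higher, of 8 trophectoderm markers 2, and of 10 neuroepithelium markers 1 was higher and 3 lower. Of the other 8 keratin genes tested, Krt10 was called lower. With counts summed by replicate number 0 genes of any of these lists were called. The part of such cells in the differences of Krt7, Krt18 and Krt19 was not tested.

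The genes whose pattern was most like that of the set were found by correlation with the mean standardized log2 CPM of the 10 genes, over the 12 libraries and among 14231 genes. The highest were Trip10 (r = 0.97), Capg (0.968), Atp6v1c1 (0.958), Las1l (0.954), Echdc2 (0.944), Fgfbp1 (0.944), Ptgr1 (0.942) and Esrp1 (0.942). With the group means taken out, Trip10 (0.955), Capg (0.937), Las1l (0.935), Esrp1 (0.934) and Atp6v1c1 (0.928) were again among the first 8, with Pdlim2 (0.935), Zfp7 (0.934) and Ildr1 (0.928). Capg, which encodes a protein that caps actin filaments, was at 7.31 CPM in control, 13.4 in LDHi and 14.4 in LDHi+lactate. Libraries of the same replicate number deviated together and the sets differ in depth, so these values describe likeness over 12 points that are not independent.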

How the data were processed

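For each library the authors deposited raw counts per Ensembl gene, from 50 bp single reads of TruSeq mRNA libraries. The submitters' notes name cutadapt 1.13, STAR, HTSeq 0.6.1p1, DESeq2 1.14.1 and mm10. The annotation, the version of STAR and the use of strand in counting were not given in the sources used here, and a gene and an overlapping gene on the other strand cannot be told apart. Symbols came from GENCODE vM21 for 54079 of 54232 IDs (99.7%).

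Groups, replicate numbers and library sets were taken from the labels. Counts were fitted with edgeR 4.0.16 in R 4.3.3 (TMM, filterByExpr by group, 17721 genes, quasi-likelihood test, Benjamini-Hochberg, called at an adjusted p under 0.05, all 12 libraries in 1 fit). Log2 CPM had a prior count of 2. The 4 independent experiments the methods describe are not tied to the replicate numbers, so p-values measure the spread between these libraries. Deviations from the group means correlated at 0.329 to 0.634 between libraries of the same number (12 pairs). Between other numbers of a set they correlated at -0.22 to 0.197 (12 pairs). Values from a fit blocked by replicate number are therefore given for the 10 genes where they change a call. For the lists they are given in LDHi against control, with some of their calls in the other comparisons of treatments. This pairing was read from the data. The smallest exact p with 4 pairs is 0.125, so exact tests were unpaired.

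The 10 genes and all lists were chosen with earlier results of these data known. Named are all 10 genes and, in each list, up to 4 called genes and 2 others with the smallest adjusted p in LDHi against control or LDHi+lactate against LDHi, as far as a result turns on them. Genes listed only as called with the block, and Krt5, Krt10, Krt14 and Cdh2, were named after their values were seen. Some genes of the lists are not reported here by name. Alternatives were RLE factors, library totals, other filters, DESeq2 1.42.0, the groups compared alone, the block, set as a term, each set alone, and each library left out. Because each replicate number belongs to 1 set, the sets were also compared on counts summed by replicate number. The edgeR step was tested on simulated data.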

Additional observations from a re-analysis of the deposited data

Results flagged for a closer look

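In 30 groups of 4 libraries (10 genes in 3 groups), 2 single libraries stood far from the other 3, with a gap to the nearest library beyond Dixon's limit. Both are control replicate 4. Krt7 was 23.4 CPM there (gap 0.84 of the range), against 14.2 to 15.7 in the other control libraries, and Krt23 was 0.658 CPM (gap 0.833), from 17 counts, against 0.261 to 0.328. Chance alone flags about 1 group in 20. Without this library the log2 fold change of Krt23 in LDHi against control was 3.01 in place of 2.66.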

How the results depend on the processing

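No alternative reversed a fold change that passed the test. In LDHi against control, where 1 of the 10 genes was called higher and 161 genes were called higher and 386 lower in all, the replicate block called 5 of the 10, 1746 genes higher and 1787 lower. DESeq2 called 474 and 853 genes, set as a term 554 and 833, only the 2 groups compared 91 and 213, replicates 1 and 2 alone 0 and 3 (0 of the 10), and replicates 3 and 4 alone 47 and 63. A minimum of 10 counts in every library left out Krt23, and 0 of the 10 were called. The block with 1 replicate number left out, an alternative added after seeing the data, called 6, 5, 3 and 3 of the 10 higher without replicates 1 to 4 and, without replicate 2, 1 lower. Without the block, leaving out 1 library gave 0 to 2 of the 10 higher, 25 to 275 genes higher and 85 to 597 lower.

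In LDHi+lactate against LDHi, where 0 genes were called, the block called 101 genes higher and 12 lower, DESeq2 54 and 2, and no filter and set as a term 1 higher each. Leaving out 1 library gave 0 to 2 genes higher. In LDHi+lactate against control the block called 4 of the 10 (2, 3, 2 and 2 without replicates 1 to 4), 740 genes higher and 686 lower, DESeq2 1 of the 10, 115 and 119, and no filter 2 genes higher. Medians of the 10 genes without 1 library ranged from 0.39 to 0.74, from -0.35 to 0.09 and from 0.3 to 0.63 on the log2 scale in the 3 comparisons of treatments.

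Between the library sets, 0 of the 10 were lower by edgeR, 3 with no filter, 2 with DESeq2 and 0 to 3 with 1 library left out, and 3 were higher in each. With counts summed by replicate number, added after seeing the data, 0 of the 10 were called higher, and 4 genes were higher and 14 lower in all in place of 2423 and 2526. Their median without 1 library ranged from -0.15 to 0.21, and that of the interaction with LDHi from 0.03 to 0.72. For the interaction with LDHi, no filter called 153 genes higher and 417 lower and DESeq2 2 and 8. The block changed no other call of the 10 genes and could not be fitted between the sets, since each number belongs to 1 set. The cause of these changes was not tested, save that the summed counts leave 4 samples. Krt23 had only 8 to 17 counts per control library.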
